A study of Mus musculus with 2 samples.

Results

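Integrins are the receptors through which cells hold on to the extracellular matrix, and focal adhesion adaptors are the cytoplasmic proteins that tie them to actin. The 39 genes described here were chosen by symbol: 18 integrin α subunits, 8 β subunits, the integrin-like gene Itgbl1 and 12 adaptors (talins, kindlins, vinculin, integrin-linked kinase, focal adhesion kinase, paxillin, zyxin and parvins). They are 39 of 21474 protein-coding rows and of 43346 rows with a gene identifier. RNA came from the facial prominences, the swellings that form the face and jaws, of mouse embryos of the strain B6NCrl at 13.5 days. Embryos of both sexes were pooled. Total RNA over 200 nt, 10 ng per library, was sequenced in 2 libraries that the labels number as biological replicates 1 and 2. They form 1 group, with separate biosamples under 1 shared donor identifier, so the study holds no contrast between conditions and the spread between libraries mixes biosample and library.

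Each integrin is a pair of 1 α and 1 β chain. Both chains cross the membrane, the outer parts bind ligands such as fibronectin, laminin and collagen, and the short tails reach into the cell. Talin and kindlin bind β tails and switch the receptor to its active form. Integrin-linked kinase with parvin, and vinculin, zyxin, paxillin and focal adhesion kinase, then connect it to actin and to signalling. In the face, cranial neural crest cells migrate and attach through integrins, and surface epithelium is held to its basement membrane by laminin-binding integrins.

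Replicate 1 was the deeper library, at 30451502 expected counts (28542452 on genes), while replicate 2 had 23777465 (22719352 on genes). Levels are TPM (counts divided by length and scaled to the same total in each library), which allow genes of different length to be compared. Markers were set beside the tissue label: 5 of 5 mesenchyme, 5 of 5 epithelium and 5 of 5 cartilage genes reached 1 TPM in each library. Of all protein-coding genes 60.9% did, so this is a weak check. It does not tell the face from other regions with the same tissues. Alx1 had 238 and 264 TPM and Trp63 45.0 and 44.2 TPM in replicates 1 and 2. The summed TPM of 5 liver markers was 3.47 in replicate 1 and 198 in replicate 2, and that of 4 heart markers 1.71 and 19.8. In bulk tissue, fewer cells of a type and less RNA per cell cannot be told apart.

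The tails are the parts that meet the adaptors, so the coding sequence of the tails is shown for the 4 α subunits highest in TPM. It was read from GENCODE M21 transcripts on GRCm38, and capitals mark the codons of GFFKR, the conserved motif next to the membrane, or of its first 3 residues where only those were there.
Itga5-201: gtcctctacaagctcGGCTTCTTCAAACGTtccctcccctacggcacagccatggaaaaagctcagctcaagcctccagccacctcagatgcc
Itga6-201: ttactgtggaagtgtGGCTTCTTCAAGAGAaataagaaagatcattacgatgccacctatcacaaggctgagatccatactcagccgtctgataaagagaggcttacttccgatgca
Itga6-202: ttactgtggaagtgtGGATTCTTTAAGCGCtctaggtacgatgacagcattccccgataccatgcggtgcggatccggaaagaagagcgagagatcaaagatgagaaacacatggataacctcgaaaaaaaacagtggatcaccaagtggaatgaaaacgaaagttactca
Itgav-202: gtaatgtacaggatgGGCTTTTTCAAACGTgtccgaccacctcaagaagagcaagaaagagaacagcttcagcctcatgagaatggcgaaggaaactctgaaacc
Itga8-201: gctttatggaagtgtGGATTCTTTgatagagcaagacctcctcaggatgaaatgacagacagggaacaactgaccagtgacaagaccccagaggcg
Introns included, the Itga6-201, Itga6-202 and Itgav-202 stretches lie on the plus strand at chr2:71849495-71853638, chr2:71849495-71856012 and chr2:83802991-83803332. Those of Itga5 and Itga8 lie on the minus strand at chr15:103345272-103345963 and chr2:12109118-12110986. Each spans 2 exons. A search of the coding strand, in frame, found the GFFKR codons in 14 of 18 α subunits and in 28 of 21427 protein-coding genes (0.131%), with 1 transcript a gene. The 4 α subunits without a match were Itga8, Itga9, Itga10 and Itga11, and all 4 held the codons of the first 3 residues within the last 200 coding bases.

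Talin and kindlin meet the β tail at motifs of the NPxY kind, whose codons are in capitals at the end of the coding sequence of the most abundant β subunits.
Itgb1-201: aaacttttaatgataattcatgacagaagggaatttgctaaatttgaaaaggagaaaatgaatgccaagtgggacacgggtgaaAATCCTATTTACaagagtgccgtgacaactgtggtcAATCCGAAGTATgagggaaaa
Itgb5-202: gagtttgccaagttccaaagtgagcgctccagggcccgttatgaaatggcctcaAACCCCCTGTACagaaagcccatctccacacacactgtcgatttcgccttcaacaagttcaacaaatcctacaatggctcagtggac
These stretches span 2 exons each, at chr8:128726109-128732085 and chr16:33947834-33948749, both on the plus strand. Within the last 200 coding bases, in frame, 5 of 8 β subunits held NPxY codons, and 97 of the 21427 protein-coding genes did (0.453%). Itgb1 had 2 matches. Itgb3, Itgb5, Itgb6 and Itgb7 had 1 each. Itgb2 had none but 2 of the variant NPxF, and Itgb4 and Itgb8 had neither in this window.

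Most genes of cell-matrix adhesion were present, and 6 of the 8 that stayed low encode subunits of leukocyte integrins. A level of 1 TPM was reached in each library by 31 of the 39 genes (79.5%) and by 60.9% of all protein-coding genes. Counted by role, these were 12 of 18 α subunits, 7 of 8 β subunits and 12 of 12 adaptors. The median of the mean TPM was 5.095 over the 39 genes and 4.68 over all protein-coding genes. Below the line were Itgad, Itgax, Itgae, Itgal, Itgam, Itga7, Itgb2 and Itgbl1. The line split close values: Itgb2 had 0.95 and 0.97 TPM, and Itgb7, also a chain of leukocyte receptors, had 1.01 and 1.23 TPM. Their intervals overlapped in both libraries. With spike-ins left out of the total 32 genes passed, and with posterior means 33 did.

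**Figure D1:**
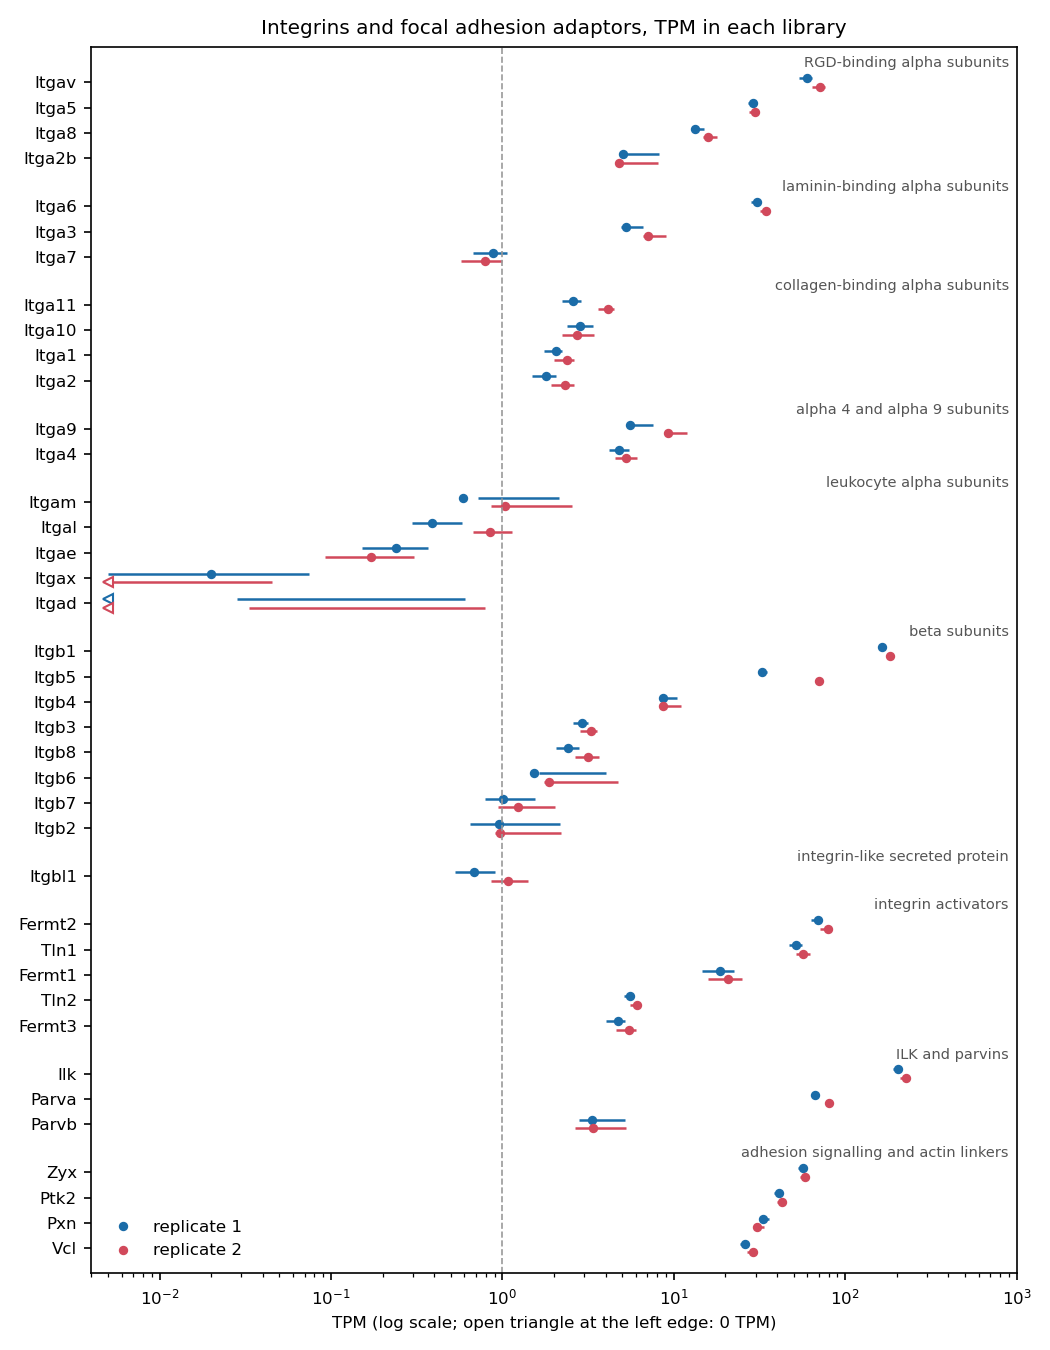
TPM of the 39 genes in replicate 1 (blue) and replicate 2 (red) on a log axis, grouped by role, with the deposited 95% credibility intervals as bars and 1 TPM as a dashed line. Ilk and Itgb1 stand highest, Itgad, Itgax and Itgae lowest, and Itgb5 shows the widest gap between libraries among genes above 10 TPM.

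Among the α subunits that recognise the RGD sequence of fibronectin and related ligands, all 4 were present. Itgav, the partner of several β chains, had 59.7 TPM in replicate 1 and 71.2 in replicate 2. Itga5, the classical fibronectin receptor chain, had 29.0 and 29.6 TPM. Itga8, which binds nephronectin, had 13.3 and 15.9 TPM, and Itga2b, the platelet subunit, 5.05 and 4.79 TPM. By TPM, Itga5 stood below Itgav by a log2 ratio of -1.15 ± 0.16 (SD, n = 2). That order depended on the length used: Itga5 collected 2626 and 2044 expected counts, and Itgav 2128 and 1944. With counts divided by the longest annotated transcript of each gene (called the longest-transcript level below), the log2 ratio of Itga5 over Itgav was 0.89 ± 0.16 (SD, n = 2), with Itga5 at 29.0 and 29.6 and Itgav at 14.5 and 17.3 TPM.

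The deposited transcript table shows which models carried these values. Itgav-205, a model of 463 nt with 175 coding bases, took 71.1% and 72.7% of the TPM of Itgav in replicates 1 and 2 but 15.4% and 15.6% of its counts. The full-length models Itgav-202 and Itgav-201 had 6.99 and 4.63 TPM in replicate 1, and 6.83 and 7.01 TPM in replicate 2. Together they carried most of the reads, with 988 and 681 expected counts in replicate 1. Whether the short model exists as an RNA in this tissue was not tested.

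Laminin-binding α subunits were led by Itga6, the chain of hemidesmosomes and of the laminin receptor of epithelium, at 30.4 and 34.7 TPM. Itga3, its relative in skin and kidney, had 5.24 and 7.08 TPM. Itga7, the laminin receptor of muscle fibres, had 0.88 and 0.79 TPM, with 73 and 50 counts. Itga6 exceeded Itga3 by a log2 ratio of 2.41 ± 0.17, and Itga3 exceeded Itga7 by 2.87 ± 0.42 (SD, n = 2), with credibility intervals apart in both libraries for each pair. All 6 skeletal muscle markers reached 1 TPM in each library, with Myog at 21.8 and 15.7 TPM, beside this low Itga7.

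Itga6 makes 2 tails by alternative splicing, named A and B. Itga6-201 carries tail A, whose own 105 coding bases lie at chr2:71853534-71853638, and Itga6-202 skips that exon and reads 159 coding bases at chr2:71855854-71856012 instead. The A transcript had 12.1 TPM in replicate 1 (95% credibility interval 9.19 to 14.1) and 13.7 in replicate 2 (9.23 to 14.4). The B transcript had 2.68 TPM (2.40e-06 to 4.89) and 1.19 TPM (0.125 to 5.16). The intervals did not overlap in either library, with A higher in both. A further 34.5% and 38.1% of the gene's TPM lay on Itga6-203, a processed transcript with no coding frame.

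All 4 collagen-binding α subunits were present at low levels, between 1.80 and 4.13 TPM in each library. Itga11, a fibroblast receptor for fibrillar collagen, had 2.58 and 4.13 TPM. Itga10, the cartilage receptor, had 2.83 and 2.73 TPM. Itga1 had 2.04 and 2.38 TPM, and Itga2, which platelets and epithelia use, 1.80 and 2.32 TPM. None of the 3 pairs compared among them (Itga11 with Itga1, Itga11 with Itga10, Itga1 with Itga2) had intervals apart in both libraries. Itga11 and Itga2, the highest and the lowest of the 4 by mean TPM, were not among the pairs listed and were set side by side after seeing the data, and their intervals did not overlap in either library (2.23 to 2.86 TPM and 1.49 to 2.04 TPM in replicate 1, 3.60 to 4.48 TPM and 1.91 to 2.62 TPM in replicate 2). Their ligand genes were far more abundant, with Col1a1 at 946 and 815 TPM.

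Itga9, a receptor for tenascin-C and VCAM-1, had 5.57 and 9.22 TPM. Itga4, which also binds fibronectin, had 4.80 and 5.28 TPM. Itga4 stood below Itga9 by a log2 ratio of -0.51 ± 0.42 (SD, n = 2): the intervals were apart in both libraries, but the mean was under 3 times its SD. In replicate 1 the TPM of Itga9 lay below its own interval (5.60 to 7.53 TPM). The interval of Itga9-201, the transcript with 100% of the Itga9 counts, was 4.96 to 5.72 TPM there. It overlapped the interval of Itga4 (4.17 to 5.46 TPM). On the longest-transcript level the ratio was -1.29 ± 0.41.

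By mean TPM the 5 leukocyte α subunits were the lowest α chains, although Itga7 (0.79 TPM) lay below Itgam and Itgal in replicate 2. Itgam, of the macrophage receptor Mac-1, had 0.59 and 1.03 TPM from 56 and 53 counts. In replicate 1 its TPM lay below its own interval (0.717 to 2.15 TPM). Itgal, of the lymphocyte receptor LFA-1, had 0.39 and 0.85 TPM, and Itgae, which holds T cells to epithelium, 0.24 and 0.17 TPM. Itgax, a dendritic cell marker, collected 2 counts in replicate 1 and 0 in replicate 2. Itgad collected none in either, which allows up to 0.105 and 0.132 CPM (3 counts of the gene-row total), counting error only. Itgal, Itgam, Itgax and Itgad all lie on chromosome 7, the last 3 in a row from 128062640 to 128223816 (Itgam to Itgad, GRCm38), and share related sequence, so reads common to them could be split among them. Macrophage genes were measured: 6 of 6 markers passed 1 TPM, with Tyrobp at 29.0 and 31.3 TPM and Csf1r at 8.56 and 9.54 TPM. Of 5 T cell markers only Lck (7.14 and 5.73 TPM) reached 1 TPM, and Cd3e had 1 count in each library.

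A single β chain dominated its family. Itgb1, the partner of most α chains, had 163 and 183 TPM from 12771 and 10935 counts, at chr8:128685654-128733200. It took 76.5% and 67.03% of the TPM summed over the 8 β subunits, or 71.7% ± 6.66 (SD, n = 2). Itgb5, which pairs with αv in a vitronectin receptor, followed at 32.7 and 70.7 TPM and took 15.3% and 26.0%. Itgb4, the hemidesmosome chain, had 8.69 and 8.61 TPM. The other 5 stayed below 4 TPM. Itgb3 (platelets, osteoclasts and endothelium) had 2.92 and 3.27 TPM. Itgb8 and Itgb6, chains of receptors that release active TGF-beta, had 2.42 and 3.17 TPM and 1.52 and 1.87 TPM. Itgb7 and Itgb2, chains of leukocyte receptors, had 1.01 and 1.23 TPM and 0.95 and 0.97 TPM.

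Itgb1 exceeded Itgb5 by a log2 ratio of 1.84 ± 0.67 and Itgb5 exceeded Itgb3 by 3.96 ± 0.67 (SD, n = 2), both with intervals apart in both libraries, although the first was under 3 times its SD. The deposited TPM of Itgb1 lay above its own credibility interval in both libraries (156 to 162 TPM in replicate 1, 174 to 180 in replicate 2). In 6 of the 39 genes the deposited TPM lay outside its own interval in at least 1 library. Itgb8 and Itgb6 differed by 0.72 ± 0.06 on the log2 scale with overlapping intervals.

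The tail of Itgb5 also comes in more than 1 form. Itgb5-202 had 29.1 TPM in replicate 1 (25.7 to 30.4) and 61.9 in replicate 2 (54.6 to 63.2), and Itgb5-201 had 3.67 (1.90 to 5.70) and 8.22 TPM (4.86 to 12.6). They differ by 29 bases at the end of 1 coding exon, in capitals here, at chr16:33947715-33947881 (the 29 bases at 33947853 to 33947881).
Itgb5-202 exon: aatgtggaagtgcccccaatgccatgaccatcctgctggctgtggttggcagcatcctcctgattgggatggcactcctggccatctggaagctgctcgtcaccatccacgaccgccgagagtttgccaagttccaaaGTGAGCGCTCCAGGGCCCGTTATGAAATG
Since 29 is no multiple of 3, Itgb5-201 reads the next exon in another frame and has 0 NPxY codons in its last 200 coding bases, where the leading Itgb5-202 has 1. The share of Itgb5-202 was 88.8% and 87.5% of the gene's TPM, so the form with the motif led in both libraries.

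Set against the 24 α-β pairings known to form receptors, 18 had both chains at 1 TPM or more in both libraries. Of the 12 pairings with Itgb1, 11 did, the exception being that with Itga7. As Itgb1 itself passed, this counts its α partners at 1 TPM or more, a level that 60.9% of all protein-coding genes reached. By the less abundant chain, αvβ1 led with Itgav at 59.7 and 71.2 TPM, then αvβ5 with Itgb5 at 32.7 and 70.7, α6β1 with Itga6 at 30.4 and 34.7, and α5β1 with Itga5 at 29.0 and 29.6. On the longest-transcript level Itgav was the lower chain of both αvβ1 and αvβ5 at 14.5 and 17.3 TPM, below Itga5 and below Itga6 (22.6 and 24.6). The order of Itga6 and Itga5 turned there too, with Itga5 at 29.0 and 29.6. By TPM the intervals of Itga6 (28.3 to 31.9) and Itga5 (27.2 to 29.3) overlapped in replicate 1 and were apart in replicate 2. In α6β4, the hemidesmosome integrin, Itgb4 was the lower chain at 8.69 and 8.61 TPM, and Itga6 exceeded it by a log2 ratio of 1.91 ± 0.14 (SD, n = 2). The platelet pair αIIbβ3 had Itgb3 at 2.92 and 3.27 TPM as the lower chain, and this order turned on the longest-transcript level, where Itgb3 exceeded Itga2b by 0.16 ± 0.10. Megakaryocyte and platelet markers reached 1 TPM in both libraries for 4 of 6 genes, with Pf4 at 46.2 and 43.7 TPM. None of the 4 pairings with Itgb2 passed. RNA levels do not show which chains pair or reach the surface.

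**Figure D2:**
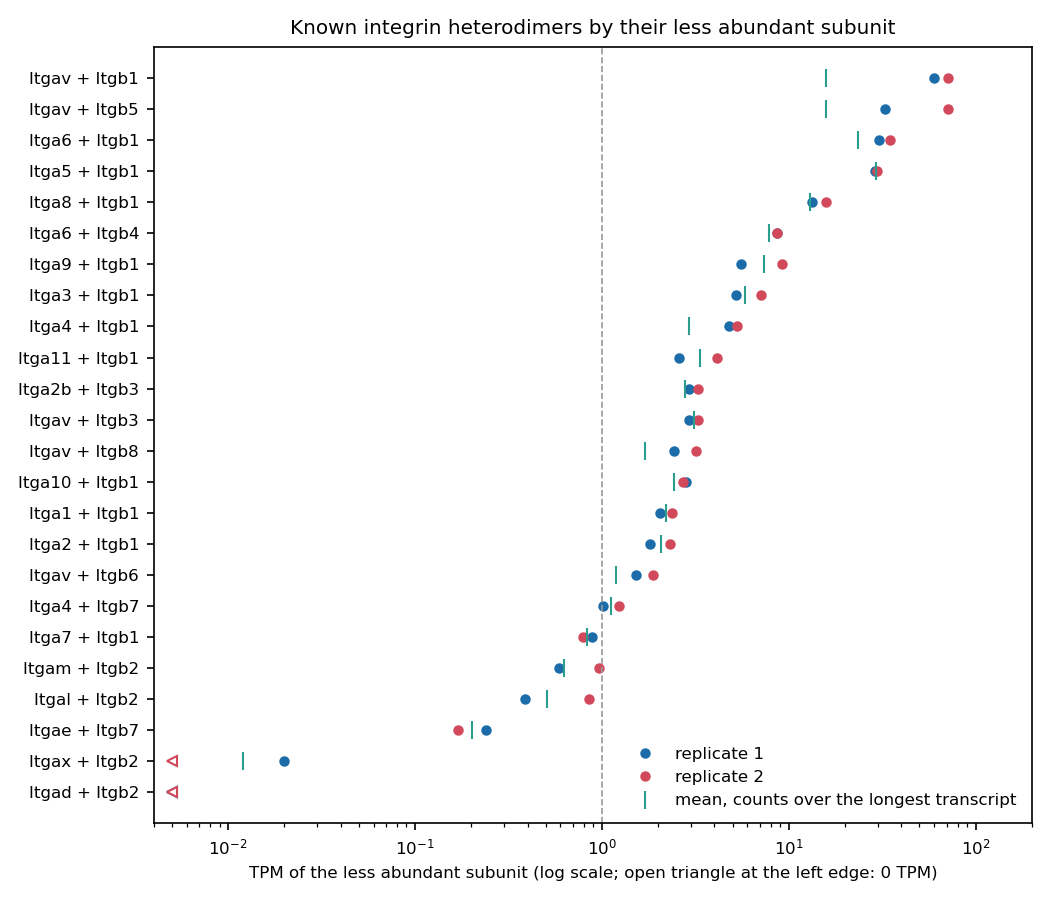
TPM of the less abundant subunit of 24 known integrin pairings in replicate 1 (blue) and replicate 2 (red) on a log axis, with the mean of the longest-transcript level as a green tick and 1 TPM as a dashed line. The 18 pairings with both chains at 1 TPM or more lie right of the line, and Itgav falls back most when the longest transcript is used.

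Integrin activators were led by Fermt2 (kindlin-2, the form of mesenchyme and many tissues) at 69.3 and 78.9 TPM and Tln1 at 51.3 and 56.6 TPM. Fermt1, the kindlin of epithelium, had 18.6 and 20.6 TPM, and Fermt3, the kindlin of blood cells, 4.71 and 5.48 TPM. Tln2, the talin of muscle and brain, had 5.52 and 6.09 TPM. Fermt2 exceeded Fermt1 by a log2 ratio of 1.92 ± 0.02, and Tln1 exceeded Tln2 by 3.22 ± 0.000627 (SD, n = 2). On the longest-transcript level these were 3.42 ± 0.19 and 2.39 ± 0.09. Fermt1 shifted most: its leading model, Fermt1-204, is a processed transcript of 317 nt with 43 and 36 counts but 49.97% and 49.5% of the TPM, and the coding Fermt1-201 had 3.03 and 2.76 TPM from 309 and 214 counts. The longest-transcript level of Fermt1 was 3.99 and 3.68 TPM, below that of Fermt3 at 4.71 and 5.48.

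Integrin-linked kinase was the most abundant of the 12 adaptors. Ilk, a scaffold at the β tail, had 203 and 227 TPM and ranked 595 among protein-coding genes, the highest of the 39, with Itgb1 at rank 770. That order turned on the longest-transcript level, where Ilk had 126 and 138 TPM and Itgb1 162 and 182 TPM. The longest Ilk model, Ilk-207 (2278 nt, annotated for nonsense-mediated decay), held only 1.24 and 47.9 counts in replicates 1 and 2. The coding Ilk-201 and Ilk-212, of 1795 and 1752 nt, held 2625 and 2443 in replicate 1, and 1772 and 2279 in replicate 2. The turned order thus rests on the length of a model with few reads. Parva had 67 and 80.4 TPM and Parvb, its relative in muscle, 3.33 and 3.38 TPM. Parva exceeded Parvb by a log2 ratio of 4.45 ± 0.17 (SD, n = 2). Ilk exceeded Parva by 1.55 ± 0.08 per length, while Parva had more counts (6186 and 5588, against 5829 and 4861 for Ilk). Of the exon bases of Ilk, 76.7% lie opposite Taf10 (95.1 and 106 TPM). Neither labels nor headers state how strand was handled, so reads of the overlap cannot be assigned with certainty.

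The remaining adaptors lay within a narrow band. Zyx, which senses tension on actin, had 56.8 and 58.6 TPM. Ptk2, focal adhesion kinase, had 40.8 and 42.8 TPM. Pxn, the scaffold paxillin, had 33.1 and 30.4 TPM, and Vcl, which clamps talin to actin, 26.2 and 28.8 TPM. Ptk2 exceeded its relative Ptk2b by a log2 ratio of 4.72 ± 0.41 (SD, n = 2). Vcl was below Zyx by -1.07 ± 0.07, and 25.5% of the exon bases of Vcl lie opposite Ap3m1 (57.8 and 51.5 TPM). Pxn and its relative Tgfb1i1 (Hic-5, at 37.5 and 40.0 TPM) were not apart in both libraries, at -0.29 ± 0.15. Itgbl1, a secreted protein with repeats like those of β chains, had 0.68 and 1.08 TPM.

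Over all 26 pairs of genes compared, 18 had intervals apart with the same order in both libraries, 16 of them by more than 3 SD, and 8 did not. The pairs were chosen with earlier results of these data known, and the share among other gene pairs was not computed. Each SD rests on 2 libraries. The 18 include Itga4 with Itga9, where the transcript interval of Itga9 overlapped the interval of Itga4 in replicate 1.

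The length used mattered for some genes and not for others. In 9 genes TPM exceeded the longest-transcript level over 1.5-fold in both libraries: Ilk, Fermt2, Itgav, Tln1, Fermt1, Itga4, Itga2b, Parvb and Itgb8. The ratio was 4.64 and 5.60 for Fermt1, 4.13 and 4.11 for Itgav and 1.61 and 1.64 for Ilk. For Itgb1, Itga5, Vcl, Itga9 and Itgb3 it was between 0.999 and 1.00 in both libraries, with nearly all their reads on 1 model. The same transcript led in both libraries for 16 of 17 genes at 5 TPM or more with over 1 transcript, where the share over all such protein-coding genes was 91.8%. The exception was Ilk, led by Ilk-201 in replicate 1 (73.2 TPM, against 69.9 for Ilk-212) and by Ilk-212 in replicate 2 (85.5 TPM, against 64.8 for Ilk-201), both with 1356 coding bases.

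**Figure D3:**
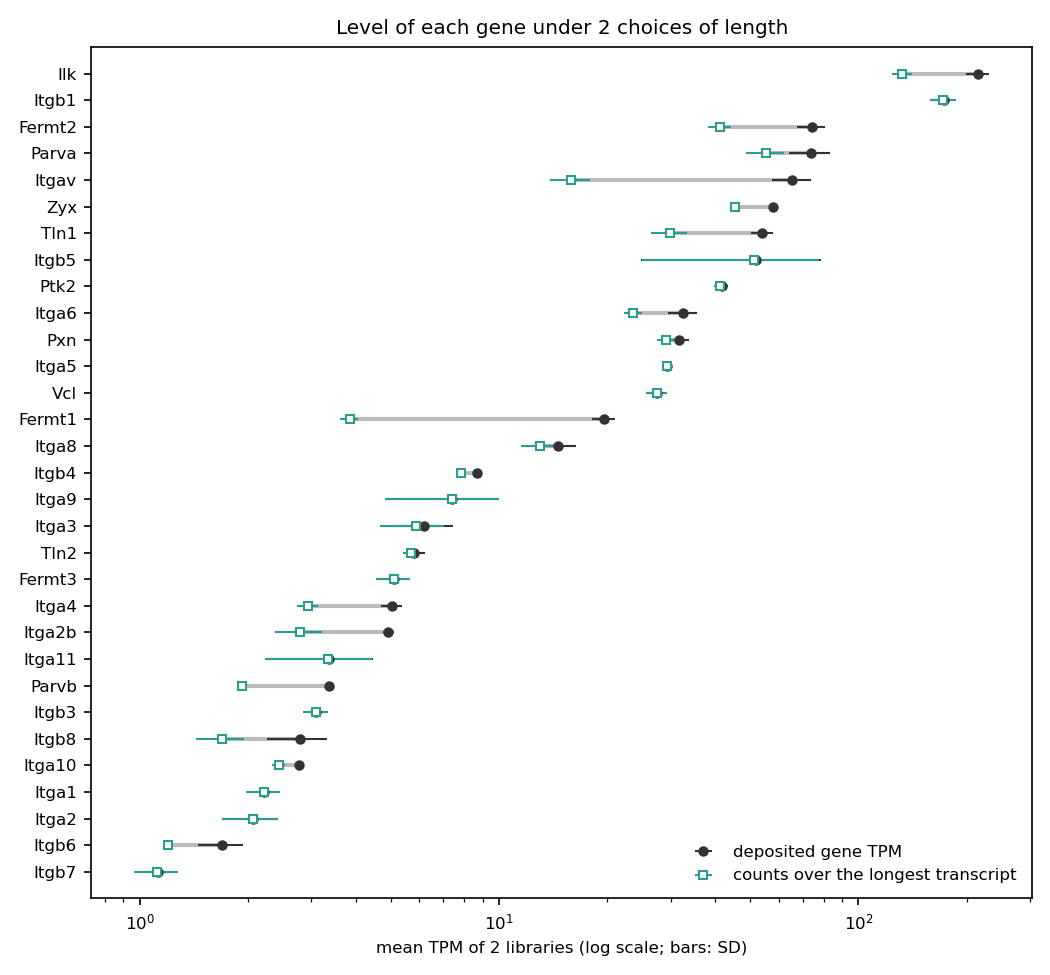
Mean TPM of both libraries for the 31 genes at 1 TPM or more, as deposited (filled circles) and from counts over the longest annotated transcript (open squares), on a log axis with SD as bars (n = 2). Fermt1 and Itgav show the longest grey lines, and Itgb1, Itga5 and Vcl show none.

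**Figure D4:**
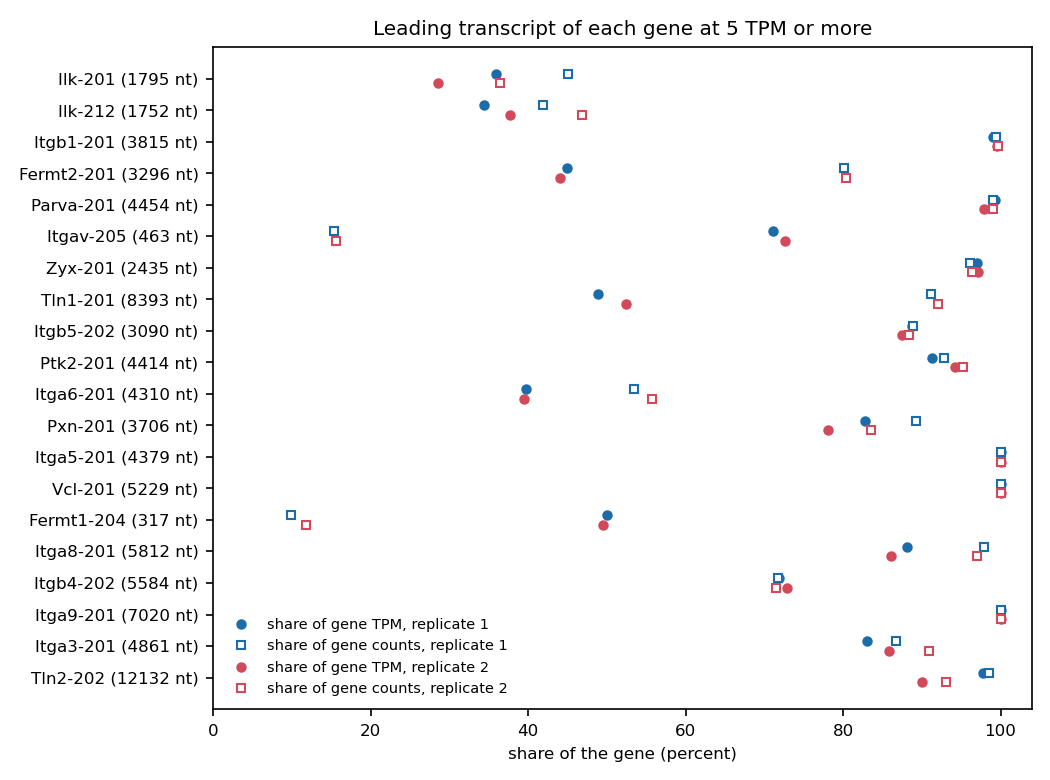
Share of each gene's TPM (filled) and of its expected counts (open) carried by its leading transcript, in percent, in replicate 1 (blue) and replicate 2 (red), for genes at 5 TPM or more, with transcript length in nt. Itgav-205 and Fermt1-204 carry far more of the TPM than of the counts.

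Ligands and partners were present almost throughout, where 60.9% of all protein-coding genes reached 1 TPM in each library. Of 40 genes for integrin ligands, 37 reached 1 TPM in each library, led by Col3a1 (1137 and 1089 TPM), Col1a1, Col1a2 (676 and 636 TPM) and Postn, which binds αv integrins (237 and 344 TPM). Fn1, the ligand of α5β1, had 140.8 and 174 TPM. Of 45 other adaptors and signalling proteins of adhesions 42 did, led by Nisch (314 and 330 TPM), which binds the α5 tail, the actin crosslinkers Flna (217 and 236 TPM) and Actn4 (190 and 176 TPM), and the small GTPase Rap1b (155 and 168 TPM). All 12 surface partners did, led by the tetraspanins Cd63 (606 and 610 TPM) and Cd81 (305 and 351 TPM), by Bsg (528 and 550 TPM) and by the syndecan Sdc1 (156 and 160 TPM). Among the ligands, Vtn, the vitronectin bound by αvβ5, had 1.64 and 6.82 TPM. Over 1.5-fold between libraries, 6 of 40 ligand genes with a mean count of 50 or more were higher in replicate 2 and 1 was lower. Among 42 such genes of the other adaptors and 12 surface partners, 0 were higher and 1 was lower in each list. Over all 14171 such genes, 3.93% were higher and 1.4% lower. The 6 ligand genes were Vtn, Tnn, Spp1, Fga, Fgb and Fgg, and the fibrinogen genes among them are given with the liver markers below.

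Between the 2 libraries most of the 39 genes differed little. With counts scaled to TMM library sizes, 34 genes had a mean count of 50 or more. Of these, 4 were over 1.5-fold higher in replicate 2 (11.8%, against 3.93% of 14171 genes) and 0 were lower by that factor (against 1.4%). The median log2 ratio of replicate 2 over replicate 1 was 0.07 over the 34 and -0.03 over all genes. With 1 library a side this describes the libraries, and no p-value is given.

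Itgb5 had 3380 counts in replicate 2 and 2069 in replicate 1, a ratio per library of 2.00 (95% interval 1.89 to 2.11, exact Clopper-Pearson, counting error only). Itga9 stood at 1.54 (1.41 to 1.69). Itgbl1, at 1.52 (1.05 to 2.23), and Itga11, at 1.503 (1.27 to 1.78), lay just past the line, and Itga3, at 1.25 (1.10 to 1.41), was the next below it. Adaptor genes lay closer to 1, from 0.860 for Fermt1 to 1.11 for Parva.

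Liver and heart markers moved the same way. Alb had 46.5 TPM in replicate 2 and 1.34 in replicate 1, Afp 84.7 and 0.45, and Nppa 8.26 and 0.19. The liver list was over 1.5-fold higher in replicate 2 for 5 of 5 genes, the fibrinogen gene Fgb among them. Fga and Fgg, fibrinogen genes outside that list, were too. Fga, Fgb and Fgg, ligands of αIIbβ3, collected 324, 277 and 331 counts in replicate 2 and 0, 0 and 1 in replicate 1. Cartilage markers were higher by a median log2 ratio of 0.37, the neuron list by 0.24 and the endothelium list by 0.13. The medians were -0.09 for epithelium, -0.20 for mesenchyme and -0.38 for skeletal muscle markers. Each of these last lists held genes in both directions. They ran from -0.37 to 0.55 in epithelium, from -0.24 to 0.22 in mesenchyme and from -0.57 to 0.61 in skeletal muscle. The part of these tissues in the values of Itgb5, Itga9 and Itga11 was not tested.

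**Figure D5:**
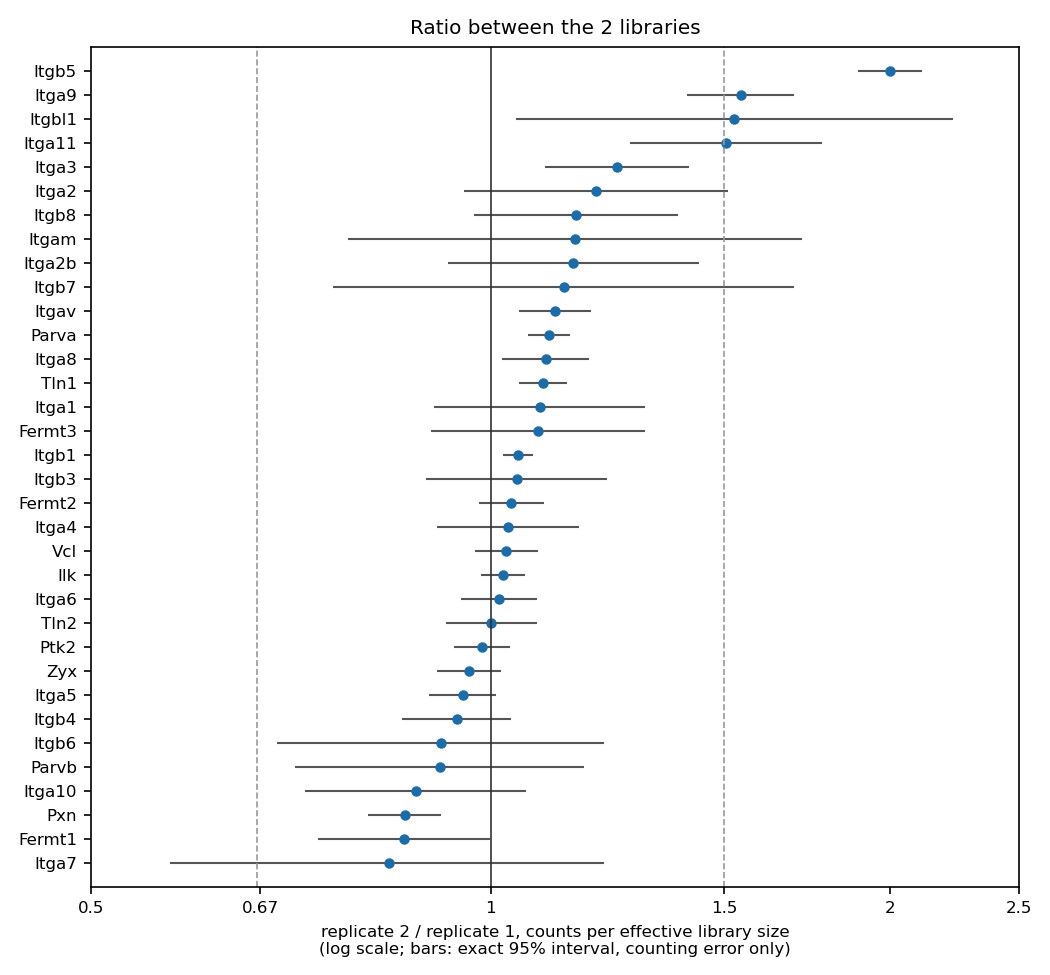
Ratio of replicate 2 over replicate 1 for the 34 genes with a mean count of 50 or more, on a log axis, with exact 95% intervals for counting error as bars and 1.5-fold as dashed lines. Itgb5 stands apart at 2.00, 3 more genes lie at or just past 1.5, and none lies below the lower line.

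Promoters were compared for the genes present in the RefSeq table of GRCm38.p6 sequences, which matched 27 of the 39. The dinucleotide CG, which reads the same on both strands, was counted in the 250 bases before the start that the table gives, in the first entry of each symbol. For Itga9 that start lies 105002 bases inside the gene as GENCODE M21 draws it, and for the other 26 genes it lies within 1000 bases of the gene's start. At least 10 were found in 18 of the 24 matched genes at 1 TPM or more and in 0 of the other 3 (Itgam, Itgax and Itgbl1), where 38.2% of all 27025 promoters held as many. Without Itga9, which had exactly 10, it was 17 of 23, a count added after seeing the data. Medians were 12 and 5. Over all protein-coding genes in the table they were 16 for those at 1 TPM or more and 2 for the rest, a split in the same direction. The median of 12 thus lay below that of all protein-coding genes at 1 TPM or more. The share of those genes with at least 10 CG was not computed. A CG-rich and a CG-poor promoter are shown, of Itgb1 (21 CG, chr8:128685404-128685653, plus strand) and of Itgax (5 CG, chr7:128129300-128129549, plus strand), with CG in capitals.
Itgb1: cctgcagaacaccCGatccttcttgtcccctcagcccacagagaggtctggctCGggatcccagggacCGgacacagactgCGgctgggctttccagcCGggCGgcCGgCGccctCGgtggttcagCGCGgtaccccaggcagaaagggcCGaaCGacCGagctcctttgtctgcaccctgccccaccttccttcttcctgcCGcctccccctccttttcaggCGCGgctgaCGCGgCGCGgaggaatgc
Itgax: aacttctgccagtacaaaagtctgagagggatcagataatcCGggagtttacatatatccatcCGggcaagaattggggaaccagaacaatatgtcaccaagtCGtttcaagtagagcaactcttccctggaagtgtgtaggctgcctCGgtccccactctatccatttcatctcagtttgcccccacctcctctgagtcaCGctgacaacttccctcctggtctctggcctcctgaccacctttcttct
Few CG also stood before some genes above the line: Fermt3, at 4.71 and 5.48 TPM, had 1 CG, and Itga2b and Itga10 had 2 each.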

How the data were processed

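Values are the authors' deposited gene and transcript tables, 1 of each per library. Per the file headers, expected counts are estimated reads per feature, and TPM and FPKM are scaled by effective length. In the deposited values effective length was transcript length minus 99 nt, and TPM summed to the same total over all rows, spike-ins included (13.4% and 9.68% of TPM). Deposited FPKM served only in alternatives. The deposited upper credibility bounds were read as a signal in TPM, and transcript shares were computed from TPM, not taken from the deposited isoform percent. The notes deposited with the files name mm10 and annotation M4. The aligner, the quantifier and the strand protocol are not given in the sources used here.

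Symbols, types and coordinates came from GENCODE M21 (GRCm38) by identifier without version, for 42462 of 43346 gene rows. Rows with a number for a name (0.000171% and 0.000151% of counts) and spike-ins (6.27% and 4.45%) stayed out of library sizes. Expected counts were rounded for edgeR 4.0.16 (TMM, prior count 1) and DESeq2 1.42.0 in R 4.3.3. Intervals came from scipy 1.17.1 in Python 3.11.15. A pair was called apart where the deposited 95% credibility intervals did not overlap in either library and the order was the same. The longest-transcript level divides a gene's expected counts by its longest deposited transcript minus 99 nt, on the scale of the deposited TPM. That transcript can hold few of the gene's reads, as Ilk-207 does for Ilk and Parva-205 for Parva. The step for library ratios was tested on simulated counts. All 39 genes, every pair, the 4 highest genes of each pathway list, any marker and leading transcripts at 5 TPM or more could be named, and other genes were named after their values were seen. Members, lists and pairs were chosen with earlier results of these data known.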

Additional observations from a re-analysis of the deposited data

How the results depend on the processing

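Of 39 recomputed summary values, 31 stayed within 1.5-fold of the count, or within 1 SD of the value, given above. Part of that tally was fixed in advance. Leaving out 1 of 2 libraries always keeps a mean of both, such as the Itgb1 share, within 1 SD. The counts of genes at 1 TPM or more, of pairs apart and of pairings with both chains could not rise 1.5-fold, only fall. The median TPM of 5.095 was 8.65 over genes at 1 TPM or more only, 5.67 with posterior means, 5.75 without spike-ins in the total, 3.84 with the longest transcript (an alternative chosen after seeing the data), and 5.05 to 5.48 with 1 library left out. The number of genes over 1.5-fold between libraries was 4 with TMM, DESeq2 size factors and total counts, 2 with a prior count of 5 and 7 with no filter on low counts. Genes with the same leading transcript numbered 25 of 26 at 1 TPM. Of the 18 pairs apart, 14 kept their order under every alternative. Leaving out a library or adding 1 TPM to both genes could not turn such a pair. Only undivided counts and the longest transcript could do so. Itga5 over Itgav was 0.19 in undivided counts and 0.89 with the longest transcript, Itgb3 over Itga2b 0.92 and 0.16, and in undivided counts Ilk over Parva was -0.14 and Vcl over Zyx 0.052 (all log2). Undivided counts favour long genes by construction. Genes at 1 TPM or more numbered 28 to 35 over the alternatives run, and pairings with both chains 15 to 20. Genes under about 60 counts, such as Itgam, Itgal, Itgb7 and Itgb2, rest on wide intervals. No paired analysis was possible because the libraries form 1 group.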
